A study of Mus musculus with 34 samples.

Results

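Respiratory complex I was examined through the transcripts of its nuclear genes in skeletal muscle of mice that lacked the insulin receptor, the IGF-1 receptor, both receptors, or both receptors and 3 FoxO transcription factors. The genes were all protein-coding mouse genes whose symbol begins with Nduf, 46 of the 46071 genes in the count table. They comprised 36 structural subunits, 8 assembly factors named Ndufaf, and the related pair Ndufa4 and Ndufa4l2. The structural subunits were divided by their place in the enzyme into the N module (10 genes), the Q module (6 genes), the proximal membrane arm (9 genes) and the distal membrane arm (11 genes). Among them were 7 nuclear core subunits, the ones that carry out catalysis, and 29 accessory subunits. All 46 genes passed the filter on low counts, with 455 to 88810 counts each over all libraries. The genes lay on 17 chromosomes, and 4 Nduf pseudogenes (Ndufab1-ps, Ndufs6b, Ndufb4c and Ndufa11b, with 62, 29, 3 and 4 counts) were left out.

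The 34 libraries came from male mice and formed 8 groups. MIRKO muscle lacked the insulin receptor (4 libraries) and was set against floxed IRlox muscle (3 libraries). MIGF1RKO muscle lacked the IGF-1 receptor (5 libraries) and was set against IGFRlox (4 libraries). MIGIRKO muscle lacked both receptors (6 libraries) and was set against IRIGFRlox (3 libraries). QKO muscle lacked both receptors and FoxO1, FoxO3 and FoxO4 (7 libraries) and was set against Qlox (2 libraries). Deletion was muscle-specific, and Acta1-Cre, a Cre recombinase under the skeletal actin promoter, was named for MIRKO, MIGIRKO and QKO, so other cells of the tissue kept the receptors. Each line was a colony of its own, with floxed littermates as controls, on a mixed background of C57Blk6, C57Blk6J and 129. The mitochondrial gene Nnt was heterozygous in MIGIRKO and IRIGFRlox and of mixed genotype in MIRKO, IRlox, QKO and Qlox. RNA came from powdered quadriceps and gastrocnemius. Age was not given in the sources used here. The labels do not say how many animals gave each library, so the p-values measure the spread between these libraries.

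Complex I is the first enzyme of the mitochondrial respiratory chain. It takes electrons from NADH in the N module, passes them along iron-sulfur clusters to ubiquinone in the Q module, and pumps protons through its membrane arm. Its subunits are encoded partly in the nucleus and partly in mitochondrial DNA, and assembly factors join the modules without staying in the finished enzyme. In muscle, complex I also binds complexes III and IV to form supercomplexes. The study's title asks about complex I and supercomplexes under insulin and IGF-1 receptors and FoxOs.

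The libraries held 1499025 to 7581198 counts. The library numbers in the titles form 6 runs of consecutive numbers, called library runs here. Both Qlox libraries lay in runs 4 and 5, which held no IRlox or IRIGFRlox library. The library labelled MIRKO 4 was closest over all genes to MIGIRKO 3 (r = 0.982 across genes), and the library labelled MIGIRKO 6 was closest to MIRKO 3 (r = 0.974 across genes). The summed level of 9 transcripts known from denervated muscle was 960.1 CPM (counts scaled to the effective library size) in MIRKO 4, against 171.4 to 202.0 CPM in the other MIRKO libraries. The same sum was 226.8 CPM in MIGIRKO 6, against 679.3 to 996.8 CPM in the other MIGIRKO libraries. Both are kept under their labels, and whether they were exchanged was not tested. Several counts of members are also given without them, while the marker sums and marker counts include them. Insr was lower in MIRKO, MIGIRKO and QKO than in their floxed groups, with no overlap. Igf1r lay at 7.57 to 11.2 CPM in MIGF1RKO, against 13.5 to 20.4 CPM in IGFRlox, and at 4.01 to 11.9 CPM in QKO, against 16.7 to 18.6 CPM in Qlox. In MIGIRKO, Igf1r lay at 15.1 to 25.8 CPM, a range that enclosed the 16.5 to 20.3 CPM of IRIGFRlox, so whole-gene counts do not show its deletion there. Foxo1 and Foxo4 were lower in QKO than in Qlox without overlap, while Foxo3 lay at 93.1 to 136 CPM in QKO, against 79.7 to 103 CPM in Qlox.

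In floxed muscle the Nduf transcripts spanned a wide range of levels per transcript length. Levels here are CPM per kilobase of the main annotated transcript, as mean ± SD over the 12 floxed libraries. Ndufb8, a distal-arm accessory subunit, was the highest at 640.0 ± 333, and Ndufa4, once counted as a complex I subunit and since placed in complex IV, followed at 604 ± 184. Ndufs1, the largest subunit of the enzyme, lay at 204 ± 10.2, and Ndufs7 lay at 165 ± 59.6. These orders per length were loose, because the spread of many members exceeded the distance to the next one. The class medians of the level per kilobase were 144 for the distal arm, 134.5 for the Q module, 88.5 for the N module and 86.8 for the proximal arm. The Ndufaf assembly factors had a median of 9.13 CPM per kilobase, and their highest member was Ndufaf6 at 35.5 ± 4.84. The lowest member was Ndufs5, a cysteine-rich subunit on the intermembrane face, at 2.89 ± 2.13. How reads with several matching places were counted is not given in the sources used here, so levels of members with near-identical pseudogene copies are uncertain.

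Loss of both receptors was accompanied by lower levels across the enzyme. Of the 46 members, 25 were called lower in MIGIRKO than in IRIGFRlox and 0 higher by edgeR's quasi-likelihood test at an adjusted p under 0.05. Among all 13646 genes tested, 16.7% were called lower and 17.0% higher, 33.7% in all. The median log2 change was -0.73 over the members and 0.04 over all genes. All 46 members had a log2 change below 0, and 35 did with library totals and no scaling factor. That setting moved the median of all genes up to 0.53 and left 7 members called lower (among them Ndufa10, Ndufa8, Ndufaf5, Ndufaf6, Ndufs1 and Ndufs7). With library totals, 688 of all 13646 genes were called lower and 6314 higher. Relative to the median of all genes, the members' median was -0.77 under both scalings. A change of scaling shifts all genes of a library alike, so this value had little room to differ. The 46 members together took 0.395% to 0.531% of all counts in MIGIRKO libraries, against 0.535% to 0.687% in IRIGFRlox libraries. In 21 members every MIGIRKO library lay below every IRIGFRlox library, where 14.8% of all genes did.

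**Figure D1:**
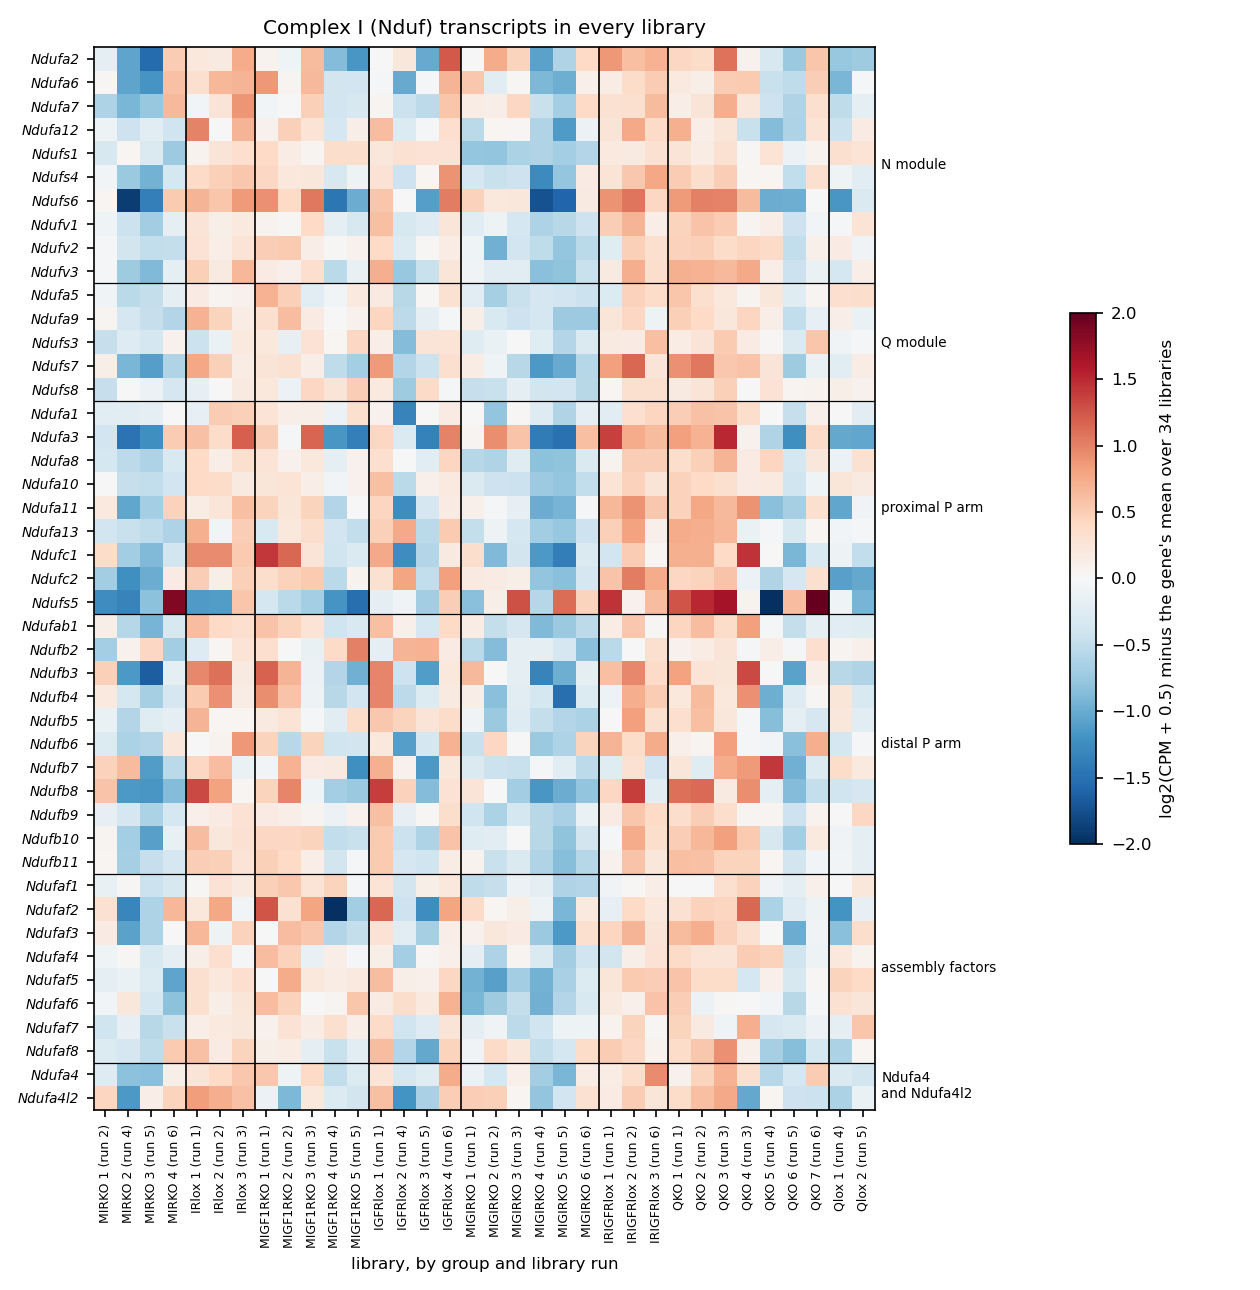
Level of 45 of the 46 Nduf transcripts (rows, by place in the enzyme) in each of the 34 libraries (columns, by group and library run), as log2(CPM + 0.5) minus the gene's mean over all libraries. Blue columns mark libraries in which most members are low: the 6 MIGIRKO libraries, whose medians over the members run from -0.75 to -0.10, the MIRKO libraries, and libraries of runs 4 and 5 in most groups.

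The heat map shows lower levels in MIGIRKO in each part of the enzyme. Only 3 library runs held both MIGIRKO and IRIGFRlox, with 1 library of each per run. Within those runs the median log2 difference over the members was -0.37 in run 1, -0.87 in run 2 and -0.62 in run 6. In run 1 the distal arm had a median of -0.06, with 7 of 11 members lower and 4 higher, and the Ndufa4 pair a median of 0.04. Of the 46 members, 28 were lower in MIGIRKO in each of the 3 runs, where 26.5% of all genes were. A fit with library runs as a block called 29 members lower, among them the same 25 and also Ndufb10, Ndufb2, Ndufb8 and Ndufs6, where it called 17.5% of all genes lower, 16.6% higher and 34.2% in all. MIGIRKO 4 and MIGIRKO 5 lay in runs 4 and 5, which held no IRIGFRlox library. The blocked median was -0.57, with Ndufa4l2 and Ndufaf2 above 0. Without the library labelled MIGIRKO 6 the count was 22, and without IRIGFRlox 2 it was 15, with medians of -0.77 and -0.65.

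All 7 nuclear core subunits were called lower in MIGIRKO, with a median log2 change of -0.81. Ndufs1 of the N module, which holds iron-sulfur clusters that carry electrons away from the flavin, lay at 264 CPM at the lowest, 287 CPM at the median and 301 CPM at the highest in MIGIRKO, against 519, 516 and 562 CPM in IRIGFRlox. Where 3 values are given for IRIGFRlox, here and below, they are its 3 libraries in replicate order, not the lowest, median and highest. Every MIGIRKO library was far below every IRIGFRlox library, and the MIGIRKO libraries differed little among themselves. Ndufs1 fell by 0.91 ± 0.12 (log2 change ± SE, edgeR adjusted p = 1.9e-06), a 1.87-fold lower level. Ndufs1 (ENSMUSG00000025968) lies on chromosome 1 at chr1:63143596-63176833, minus strand, in GRCm38, and an opposite-strand neighbour, Eef1b2, overlaps it. The kit kept strand, but the strand setting of the counting is not given in the sources used here, and 15 members overlap a gene on the opposite strand.

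The other N-module core subunits were lower as well. Ndufv1, the subunit that binds NADH and the flavin, lay at 148, 174 and 213 CPM (lowest, median and highest) in MIGIRKO. The 3 IRIGFRlox libraries lay at 319, 364 and 249 CPM in replicate order. The groups did not overlap, and the log2 change was -0.81 ± 0.19 (edgeR adjusted p = 0.0017). Ndufv2, an iron-sulfur subunit beside Ndufv1, lay at 114, 154 and 209 CPM in MIGIRKO, against 187, 308 and 277 CPM in IRIGFRlox. One IRIGFRlox library fell within the MIGIRKO range of Ndufv2, whose log2 change was -0.73 ± 0.19 (edgeR adjusted p = 0.0031). The N module as a whole had 6 of 10 members called lower, with a median log2 change of -0.81. Its accessory subunit Ndufs4, known from Leigh syndrome, lay at 22.5, 40.8 and 61.8 CPM in MIGIRKO, against 66.9, 80.4 and 94.1 CPM in IRIGFRlox, without overlap, and it fell by 1.00 ± 0.24 on the log2 scale (edgeR adjusted p = 0.0022). At the other end of the module, Ndufa7, an accessory subunit, lay at 16.7, 30.1 and 36.6 CPM in MIGIRKO, against 33.7, 34.2 and 42.6 CPM in IRIGFRlox. These ranges overlapped, and the log2 change of -0.38 ± 0.31 was not called (edgeR adjusted p = 0.35).

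The Q module, where ubiquinone is reduced, was called lower in 6 of 6 members, with a median log2 change of -0.63. Ndufs7, an iron-sulfur subunit at the ubiquinone site, lay at 55.2, 83.2 and 136 CPM (lowest, median and highest) in MIGIRKO. The 3 IRIGFRlox libraries lay at 217, 272 and 148 CPM in replicate order. Ndufs7 had the lowest log2 change of any member, -1.25 ± 0.34 (edgeR adjusted p = 0.0056), and the gap between the groups was narrow because both were widely spread. In the blocked fit its log2 change was -0.95 (edgeR adjusted p = 3.9e-05). Ndufs8, another iron-sulfur subunit, lay at 70.2, 77.7 and 91.5 CPM in MIGIRKO, against 106, 129 and 129 CPM in IRIGFRlox. The groups did not overlap, and the log2 change was -0.62 ± 0.16 (edgeR adjusted p = 0.0027). Ndufs3, an early scaffold of the module, lay at 66.3, 84.4 and 101 CPM in MIGIRKO, against 114, 112 and 152 CPM in IRIGFRlox. Ndufs3 also showed no overlap, with a log2 change of -0.57 ± 0.19 (edgeR adjusted p = 0.022). The accessory subunit Ndufa9, which holds a pyridine nucleotide, lay at 116, 147 and 208 CPM in MIGIRKO, against 228, 258 and 179.7 CPM in IRIGFRlox. One IRIGFRlox library lay within the MIGIRKO range, and the log2 change was -0.58 ± 0.20 (edgeR adjusted p = 0.028).

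Both membrane arms, whose core subunits are encoded in mitochondrial DNA, held nuclear accessory subunits that fell. In the proximal arm 5 of 9 members were called lower, with a median log2 change of -0.85. Ndufa8, a cysteine-rich subunit on the intermembrane face, lay at 35.6, 42.1 and 53.1 CPM (lowest, median and highest) in MIGIRKO. The 3 IRIGFRlox libraries lay at 66.6, 89.2 and 89.4 CPM in replicate order. Ndufa10, an accessory subunit with a nucleoside kinase fold, lay at 119, 148 and 168 CPM in MIGIRKO, against 246, 283 and 246 CPM in IRIGFRlox. Neither gene overlapped between the groups, with log2 changes of -0.91 ± 0.17 for Ndufa8 and -0.85 ± 0.17 for Ndufa10 (edgeR adjusted p = 0.00012 and 0.00028). In the distal arm 4 of 11 members were called lower, with a median of -0.74. Ndufb9, which anchors the mitochondrial acyl carrier protein, lay at 90.1, 102 and 129.6 CPM in MIGIRKO, against 159, 209 and 187 CPM in IRIGFRlox. Ndufb5, a membrane subunit, lay at 208, 239.6 and 330.0 CPM in MIGIRKO, against 345, 613 and 434 CPM in IRIGFRlox. Both were lower without overlap, with log2 changes of -0.82 ± 0.16 for Ndufb9 and -0.86 ± 0.21 for Ndufb5 (edgeR adjusted p = 0.00021 and 0.0022). Ndufb7, another cysteine-rich subunit, lay at 55.9, 62.5 and 79.5 CPM in MIGIRKO, against 68.2, 99.1 and 61.6 CPM in IRIGFRlox. Its ranges overlapped, and its log2 change of -0.24 ± 0.42 was not called (edgeR adjusted p = 0.69). Ndufb8, the transcript highest per length, had a log2 change of -1.15 ± 0.50 that was not called (edgeR adjusted p = 0.073), and in the blocked fit it was -0.70 and called (edgeR adjusted p = 0.017).

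Of the 8 Ndufaf assembly factors, 3 were called lower in MIGIRKO, and the median log2 change was -0.43. Ndufaf5, which hydroxylates an arginine of Ndufs7 during assembly, lay at 12.7, 15.5 and 22.7 CPM (lowest, median and highest) in MIGIRKO. The 3 IRIGFRlox libraries lay at 32.8, 39.8 and 39.1 CPM in replicate order. Every MIGIRKO library lay well below IRIGFRlox, and Ndufaf5 fell by 1.19 ± 0.20 on the log2 scale (edgeR adjusted p = 3.8e-05), a 2.28-fold lower level. Ndufaf6, which is needed for assembly of complex I, lay at 15.8, 19.7 and 25.2 CPM in MIGIRKO, against 35.7, 33.5 and 46.6 CPM in IRIGFRlox. It was also lower without overlap, with a log2 change of -0.96 ± 0.19 (edgeR adjusted p = 0.00034). The third, Ndufaf1, a part of the membrane-arm assembly complex, had a log2 change of -0.43 ± 0.15 (edgeR adjusted p = 0.028), which turned above 0 with library totals and no scaling factor. Ndufaf2, which binds a late assembly intermediate, lay at 1.69, 3.89 and 4.93 CPM in MIGIRKO, against 3.21, 4.97 and 4.28 CPM in IRIGFRlox, and at such levels its change of -0.17 ± 0.53 was not resolved (edgeR adjusted p = 0.84). Ndufa4 lay at 163, 262 and 341 CPM in MIGIRKO, against 339, 393 and 591 CPM in IRIGFRlox, with a slight overlap and a log2 change of -0.77 ± 0.28 (edgeR adjusted p = 0.031). Its paralog Ndufa4l2, known as a hypoxia-induced transcript, lay at 1.42, 3.23 and 4.16 CPM in MIGIRKO, against 3.21, 4.21 and 3.42 CPM in IRIGFRlox. The ranges of Ndufa4l2 overlapped, and its change of -0.25 ± 0.41 was not called (edgeR adjusted p = 0.66). Ndufs5 also overlapped between the groups, with 0.771, 2.28 and 4.97 CPM in MIGIRKO, against 5.65, 1.91 and 2.99 CPM in IRIGFRlox, and a log2 change of -0.46 ± 0.69 (edgeR adjusted p = 0.64).

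**Figure D2:**
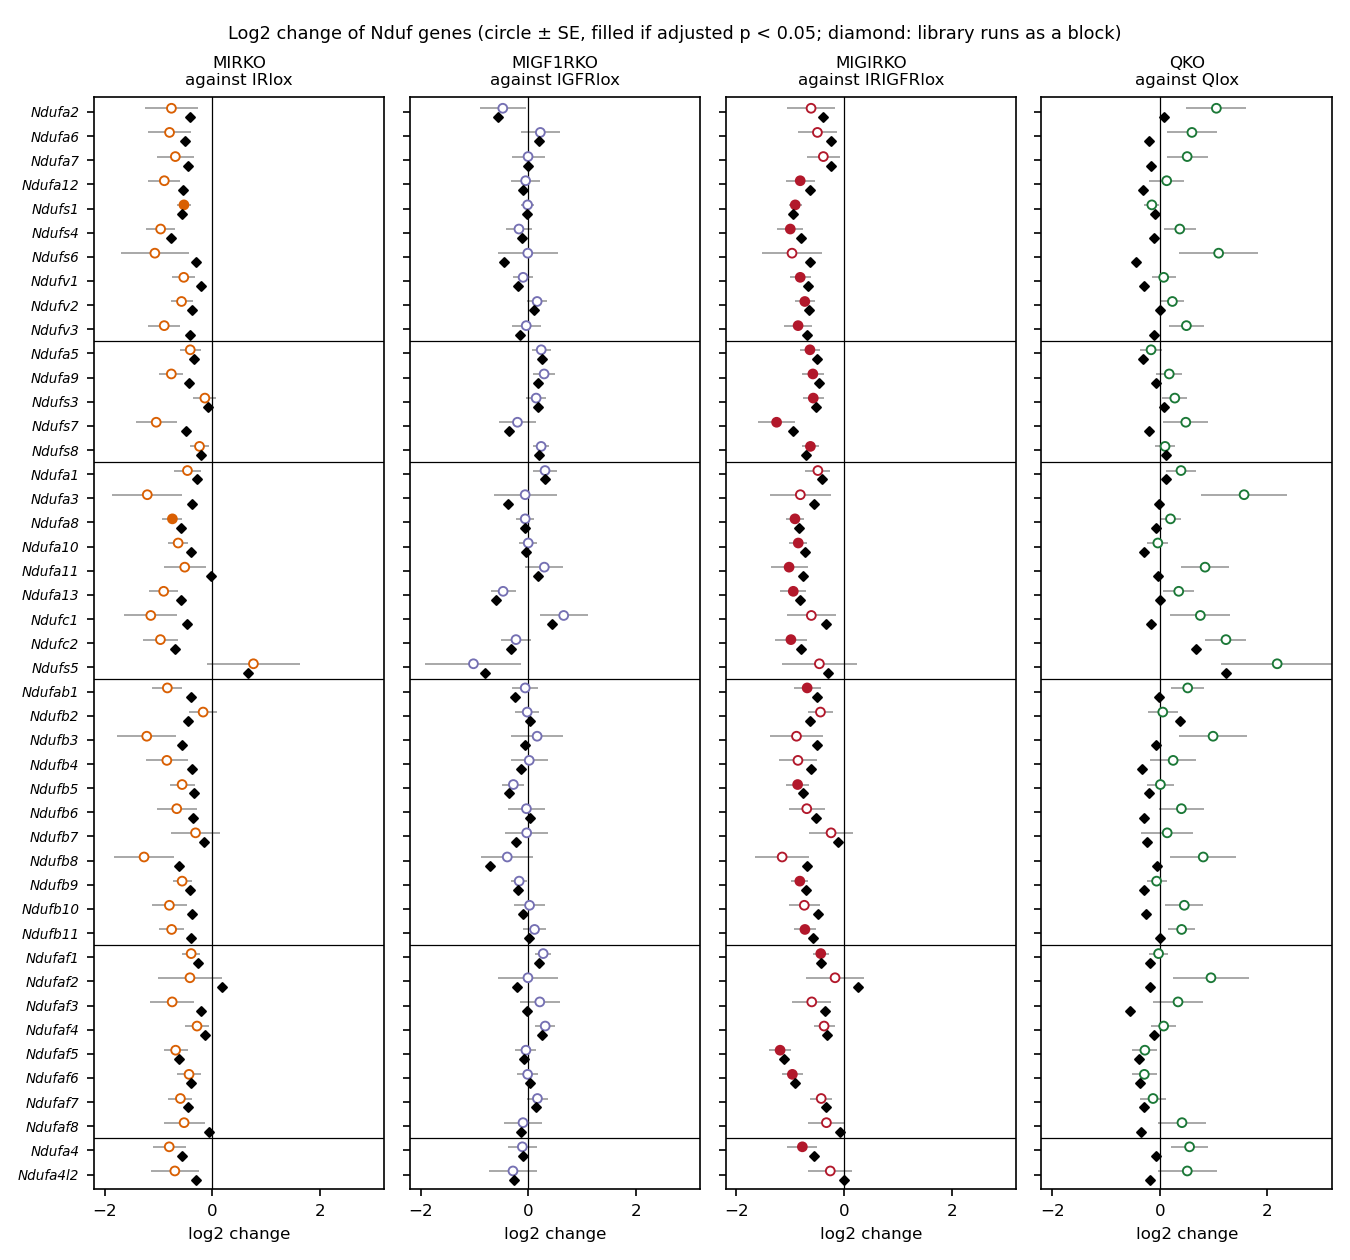
Log2 change (horizontal axis) of 45 of the 46 Nduf genes (rows, by place in the enzyme) in the 4 knockout groups against their floxed groups, as circles ± SE, filled where the edgeR adjusted p is under 0.05, with black diamonds for the fit with library runs as a block. The panel of MIGIRKO has 24 filled circles, all left of 0, that of MIRKO has 2, and those of MIGF1RKO and QKO have 0.

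The plot of log2 changes sets the 4 knockouts side by side, and it shows the diamonds of the blocked fit left of the circles for most members in QKO. Genes outside the Nduf family that encode or build complex I were also lower in MIGIRKO. Of the 7 complex I mRNAs encoded in mitochondrial DNA, 5 were called lower, with a median log2 change of -0.94. The transcript mt-Nd2, a core subunit of the proximal membrane arm, lay at 2023, 2783 and 3481 CPM (lowest, median and highest) in MIGIRKO, against 4744 to 8862 CPM in IRIGFRlox, with no overlap and a log2 change of -1.27 ± 0.21 (edgeR adjusted p = 2.6e-05). The distal-arm core subunit mt-Nd5 had a log2 change of -0.94 ± 0.17 (edgeR adjusted p = 0.00012). Of 12 assembly factors with other names, 8 were called lower, with a median of -0.49. Ecsit, a member of the same membrane-arm assembly complex as Ndufaf1, lay at 25.9, 31.2 and 38.4 CPM in MIGIRKO, against 63.7 to 74.8 CPM in IRIGFRlox, with no overlap and a log2 change of -1.12 ± 0.16 (edgeR adjusted p = 4.4e-06). Tmem186, another part of that complex, had a log2 change of -0.76 ± 0.14 (edgeR adjusted p = 0.0001). Of 6 genes linked to supercomplexes or to import of their subunits, Phb, a prohibitin of the inner membrane, was the 1 called lower (-0.87 ± 0.20, edgeR adjusted p = 0.0011). Cox7a2l, which joins complexes III and IV and was chosen after its values were seen, had a log2 change of -0.01 ± 0.31 (edgeR adjusted p = 0.99). Of 38 tested nuclear subunits of complexes II to V, 20 were called lower, with a median of -0.73. The medians of the Nduf genes and of complexes II to V were the same to 2 decimals, and nothing here sets complex I apart from the other complexes.

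Other transcripts moved with the same groups. The summed CPM of 10 muscle fiber markers was 71100 to 116300 in MIGIRKO, against 187100 to 216300 in IRIGFRlox, and 6 of the 10 were called lower. The sum of 7 adipocyte markers was 396.6 to 1370 CPM in MIGIRKO, against 164.9 to 180.3 CPM in IRIGFRlox, with 7 of 7 called higher. The sum of 9 macrophage and immune markers was 576.5 to 1595 CPM in MIGIRKO, against 171.1 to 259.1 CPM in IRIGFRlox, with 9 of 9 called higher. The 9 denervated muscle transcripts summed to 226.8 to 996.8 CPM in MIGIRKO, against 67.93 to 79.02 CPM in IRIGFRlox, with 9 of 9 called higher. Of the other lists, 6 of 7 Schwann cell and 4 of 6 fibroblast markers were called higher, and 0 of 6 endothelial and 0 of 5 red blood cell markers changed by edgeR (1 and 0 at an unadjusted p under 0.05). No marker of these lists was at 0 in MIGIRKO or IRIGFRlox. The TMM scaling factor was 1.17 to 1.32 in MIGIRKO, against 0.866 to 0.887 in IRIGFRlox. The part of these differences in the lower Nduf levels was not tested, and in bulk muscle fewer fibers and less RNA per fiber cannot be told apart.

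Loss of the insulin receptor alone gave lower values in nearly all members but few calls. In MIRKO against IRlox, edgeR called 2 members lower, Ndufa8 and Ndufs1, and 0 higher, where 0.865% of all genes were called lower and 0.381% higher, 1.25% in all. The median log2 change over the members was -0.69, against 0.03 over all genes, and 45 of 46 lay below 0 (42 with library totals and no scaling factor). MIRKO 2 and MIRKO 3 lay in library runs 4 and 5, which held no IRlox library, and the median was -0.40 in the blocked fit. Ndufs1 lay at 365, 469, 374 and 273 CPM in MIRKO, against 478, 546 and 575 CPM in IRlox. The groups did not overlap, though the highest MIRKO library lay close to the lowest IRlox library, and the lowest value belonged to the library labelled MIRKO 4. Ndufa8 lay at 49.5, 43.9, 41.3 and 51.0 CPM in MIRKO, against 83.7, 69.7 and 79.4 CPM in IRlox. Here the 4 MIRKO libraries lay together and well below IRlox. The log2 changes were -0.53 ± 0.13 for Ndufs1 and -0.74 ± 0.19 for Ndufa8 (edgeR adjusted p = 0.04 each).

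The 2 calls in MIRKO depended on the libraries and on the fit. Without the libraries labelled MIRKO 4 and MIGIRKO 6, 0 members were called by edgeR, where 0.245% of all genes were, and the median was -0.83. The count was also 0 without MIRKO 3 or without any 1 of the 3 IRlox libraries, and it was 6 without MIRKO 1. The blocked fit called 1 member lower, Ndufs4, where it called 0.418% of all genes lower, 0.125% higher and 0.542% in all, and the median was -0.40. Ndufs4 lay at 53.2, 32.7, 28.3 and 43.1 CPM in MIRKO, against 71.9, 76.8 and 80.2 CPM in IRlox, without overlap, with a blocked log2 change of -0.78 ± 0.18 (edgeR adjusted p = 0.04). DESeq2 called 7 members, where it called 2.72% of all genes, and limma-voom 2, where it called 1.39%. At an unadjusted p under 0.05 in edgeR there were 27 members, among 2345 of all 13646 genes. In 25 members every MIRKO library lay below every IRlox library, where 8.23% of all genes did. Within run 2, the only one with both groups, 45 of 46 members were lower in MIRKO, with a median log2 difference of -0.40. Ndufs3 and Ndufs8, core subunits of the Q module, overlapped between MIRKO and IRlox, with log2 changes of -0.14 ± 0.21 and -0.24 ± 0.17 (edgeR adjusted p = 0.78 and 0.49). In MIRKO the summed muscle fiber markers lay at 90650 to 150200 CPM, against 167500 to 193600 CPM in IRlox, with 1 of 10 called lower. The lowest of these fiber sums belonged to the library labelled MIRKO 4. The summed immune markers lay at 520.4 to 1175 CPM in MIRKO, against 303.0 to 377.9 CPM in IRlox, with 0 of 9 called by edgeR and 3 at an unadjusted p under 0.05. The 9 denervated muscle transcripts summed to 960.1 CPM in the library labelled MIRKO 4 and 171.4 to 202.0 CPM in the other MIRKO libraries. In IRlox they summed to 65.81 to 90.7 CPM. With MIRKO 4 included, 4 of 9 were called higher. The part of these markers in the Nduf values was not tested.

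The change in MIGIRKO was set against that in MIRKO by the difference of the changes. By edgeR 0 members differed, where 0.0% of all genes did, with 1 member, Ndufs1, at an unadjusted p under 0.05, and limma-voom called 0. DESeq2 gave an adjusted p to 3857 genes and called 0 members. The median difference, MIGIRKO minus MIRKO, was -0.02. Without the libraries labelled MIRKO 4 and MIGIRKO 6 the count over all genes was 457 of 13466, 3.39%, with 172 higher and 285 lower, so the 0 over all genes rested on these 2 libraries. The members still numbered 0 without them by edgeR, with a median difference of 0.00, and the blocked fit without them called 428 genes, 3.18%, and 0 members, with a median of -0.16. With all libraries, the difference for Ndufs1 was -0.38 with a 95% interval of -0.75 to -0.01 (edgeR adjusted p = 0.46), and for Ndufa8 it was -0.17 with an interval of -0.69 to 0.35. These intervals are wide, and they do not show that both genotypes act alike.

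Loss of the IGF-1 receptor alone gave no call. In MIGF1RKO against IGFRlox edgeR called 0 members, where 0.616% of all genes were called (0.264% higher, 0.352% lower). At an unadjusted p under 0.05 there were 0 members. DESeq2 and limma-voom called 0, where they called 1.06% and 0.572% of all genes. The median log2 change over the members was -0.01, with 28 members below 0 and 18 above. Ndufs1 lay at 598, 505, 474, 579 and 582 CPM in MIGF1RKO, against 534, 564, 554 and 552 CPM in IGFRlox. The IGFRlox values lay inside the MIGF1RKO range, and the log2 change was -0.01 with a 95% interval of -0.25 to 0.23 (edgeR adjusted p = 0.99). Ndufaf5 lay at 27.6, 46.5, 32.1, 30.8 and 31.7 CPM in MIGF1RKO, against 42.9, 30.0, 29.6 and 37.0 CPM in IGFRlox, overlapping widely, with an interval of -0.44 to 0.36. The interval of Ndufa8 ran from -0.39 to 0.28 and that of Ndufs7 from -0.88 to 0.49. In 0 members did all MIGF1RKO libraries lie on one side of all IGFRlox libraries, where 2.69% of all genes lay below and 2.45% above. Within runs 1, 4 and 5 the median log2 differences over the members were -0.04, 0.05 and 0.11.

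The changes in MIGIRKO and MIGF1RKO differed for some members. By the difference of the changes, MIGIRKO minus MIGF1RKO, edgeR called 10 members lower and 0 higher, where 4.91% of all genes were lower and 3.67% higher, 8.58% in all. The median difference was -0.76. Among those called were the core subunits Ndufs1, Ndufs8 and Ndufv2, the accessory subunits Ndufa10, Ndufa5 and Ndufa8, and the assembly factors Ndufaf1, Ndufaf5 and Ndufaf6. Ndufs1 differed by -0.90 ± 0.17 (edgeR adjusted p = 0.0025) and Ndufaf5 by -1.15 ± 0.28 (edgeR adjusted p = 0.012). The blocked fit called 12 members lower, where it called 5.2% of all genes lower, 2.92% higher and 8.11% in all, and Ndufa5 was no longer called (edgeR adjusted p = 0.051). The count was 2 with library totals and no scaling factor (Ndufaf5 and Ndufs1), where 205 of all 13646 genes were called lower and 1962 higher. It was 1 without library runs 4 and 5, where 1.03% of all genes were called. It was 4 without IGFRlox 2 or without IRIGFRlox 2, 5 without IRIGFRlox 3 and 6 without MIGF1RKO 1.

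In QKO, which lacked the FoxOs as well, no member was called against its floxed group. Of the 46 members edgeR called 0 in QKO against Qlox, where 0.506% of all genes were called (0.0513% higher and 0.454% lower). Ndufc2 and Ndufs5 had an unadjusted p under 0.05. DESeq2 called 1 member, where it called 1.11% of all genes, and limma-voom 0, where it called 0.498%. The median log2 change was 0.36 with 37 members above 0, and in the blocked fit it was -0.17 with 36 members below 0, so the direction of the family turned with the fit. The blocked fit also called 0 members, where it called 0.044% of all genes higher, 0.359% lower and 0.403% in all. Only runs 4 and 5 held both groups, with 1 library of each, and their medians over the members were 0.10 and -0.44. The run 4 value rested on QKO 5, the smallest of the 34 libraries with 1499025 counts. The run 5 value rested on QKO 6, which had the highest immune marker sum of the 34 libraries, 2932 CPM, and the lowest fiber sum of the QKO libraries. Ndufs1 lay at 419, 503 and 563 CPM (lowest, median and highest) in QKO, against 564 and 550.2 CPM in Qlox. The QKO range reached up to the Qlox values, and the log2 change was -0.15 with a 95% interval of -0.43 to 0.13 (edgeR adjusted p = 0.71). Ndufs7 lay at 74.9, 179.5 and 257 CPM in QKO, against 106 and 136 CPM in Qlox, with an interval of -0.36 to 1.33. The QKO range of Ndufs7 enclosed the Qlox values.

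Ndufc2, a small membrane subunit of the proximal arm, was lower in both Qlox libraries than in the other floxed libraries. It lay at 45.8, 86.7 and 103 CPM (lowest, median and highest) in QKO, against 32.5 and 33.9 CPM in Qlox. Of the 46 members it was the 1 in which every QKO library lay above every Qlox library. As 3.91% of all genes did so, 1 member was no more than the share over all genes. The log2 change of Ndufc2 was 1.23 ± 0.38 (edgeR adjusted p = 0.18), and 0.67 in the blocked fit (edgeR adjusted p = 0.3). In MIGIRKO the gene lay at 38.7, 64.9 and 78.3 CPM. The 3 IRIGFRlox libraries lay at 103, 142 and 116 CPM in replicate order, and the log2 change was -0.99 ± 0.29 (edgeR adjusted p = 0.0098). Both Qlox libraries were thus lower in Ndufc2 than every other floxed library, of which the lowest was 49.3 CPM in IGFRlox. In groups with libraries inside and outside runs 4 and 5, where both Qlox libraries lie, Ndufc2 averaged -0.71 on the log2 scale in those runs relative to the others. Among the 4 floxed groups edgeR called 0 members as different, where 0.264% of all genes were called, limma-voom also called 0, and Ndufc2 was the 1 member with an unadjusted p under 0.05 (edgeR adjusted p = 0.15).

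**Figure D3:**
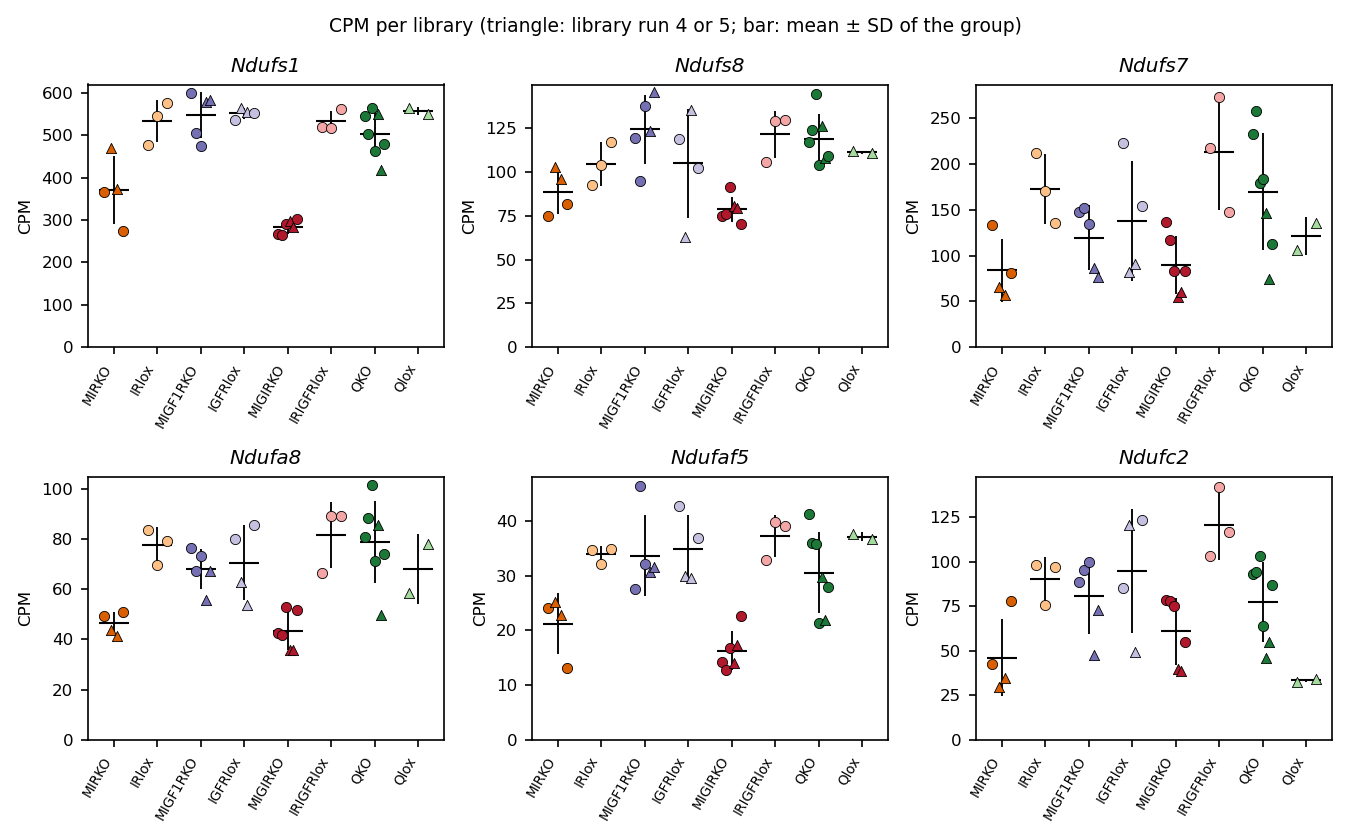
CPM (vertical axis) of 6 Nduf genes in every library of the 8 groups (horizontal axis), with triangles for library runs 4 and 5, circles for the other runs, and bars for the group's mean ± SD. For Ndufs1, Ndufs8, Ndufa8 and Ndufaf5 the MIGIRKO points lie below the IRIGFRlox points with no overlap, and for Ndufc2 the 2 Qlox points, at 32.5 and 33.9 CPM, lie below all other floxed points.

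The plot of CPM per library shows Ndufs1 as a gene with little spread within most groups, and Ndufs7 as a gene whose triangles lie low in most groups. The change in QKO was set against that in MIGIRKO by the difference of the changes, QKO minus MIGIRKO. By edgeR 9 members were called higher and 0 lower, where 3.61% of all genes were higher and 2.15% lower, 5.76% in all. The median difference was 0.99. Among those called were the core subunits Ndufs1 and Ndufv2 and the accessory subunits Ndufs4, Ndufa8, Ndufa11, Ndufa13, Ndufb11 and Ndufc2. Ndufc2 differed by 2.21 ± 0.48 (edgeR adjusted p = 0.008), Ndufa8 by 1.11 ± 0.27 (edgeR adjusted p = 0.013) and Ndufs1 by 0.76 ± 0.19 (edgeR adjusted p = 0.016). The blocked fit called 2 of these, Ndufc2 at 1.48 and Ndufs1 at 0.86 (edgeR adjusted p = 0.028 and 0.017), where it called 2.48% of all genes higher, 1.47% lower and 3.95% in all, and the median was 0.47. The count was 1 with library totals and no scaling factor (Ndufc2), where 166 of all 13646 genes were called higher and 1238 lower. DESeq2 called 15 members, where it called 8.19% of the 13116 genes it tested. The count was 0 without Qlox 1, 1 without Qlox 2, 3 without IRIGFRlox 2 and 19 without QKO 6, the library with the highest sum of immune markers. Further counts under 6 came without IRIGFRlox 3 (5), MIGIRKO 4 (4), MIGIRKO 5 (3), QKO 1 (3), QKO 2 (4) and QKO 3 (4).

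A direct comparison of QKO with MIGIRKO crosses colonies and holds more libraries. It does not use the floxed groups, but it shares the MIGIRKO libraries with the comparison against IRIGFRlox. By edgeR 26 members were called higher in QKO and 0 lower, where 16.2% of all genes were called higher and 14.0% lower, 30.2% in all. The median log2 change was 0.60 over the members and -0.03 over all genes, and all 46 members were above 0. With library totals and no scaling factor, 34 members were above 0 and 6 were called higher. That setting called 754 of all 13646 genes higher and 5895 lower. Called higher were 7 of 7 core subunits, 15 of 29 accessory subunits and 4 of 8 Ndufaf genes, with 5 of 10 in the N module, 6 of 6 in the Q module, 5 of 9 in the proximal arm and 6 of 11 in the distal arm. Ndufs1, whose values in both groups are given above, had a log2 change of 0.82 ± 0.10 (edgeR adjusted p = 2.2e-07), and every QKO library lay above every MIGIRKO library. Ndufs8 lay at 104, 117 and 145 CPM (lowest, median and highest) in QKO, against 70.2, 77.7 and 91.5 CPM in MIGIRKO, also without overlap, with a log2 change of 0.60 ± 0.13 (edgeR adjusted p = 0.00055). The distal-arm subunit Ndufb2 was the third such member. With 4.88% of all genes wholly above, 3 of 46 members was close to the share over all genes.

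Further members were higher in QKO than in MIGIRKO with some overlap. Ndufa8 lay at 49.6, 80.8 and 102 CPM (lowest, median and highest) in QKO, against 35.6, 42.1 and 53.1 CPM in MIGIRKO, with a log2 change of 0.85 ± 0.14 (edgeR adjusted p = 2e-05). Ndufaf5 lay at 21.4, 29.8 and 41.3 CPM in QKO, against 12.7, 15.5 and 22.7 CPM in MIGIRKO, with a log2 change of 0.91 ± 0.17 (edgeR adjusted p = 9.5e-05). For Ndufa8 the lowest QKO library fell within the upper end of MIGIRKO. For Ndufaf5, QKO 4 and QKO 6, at 21.4 and 22.0 CPM, lay under the 22.7 CPM of the library labelled MIGIRKO 6. The other MIGIRKO libraries lay at 12.7 to 17.4 CPM, below every QKO library. Ndufs7 had a log2 change of 0.92 ± 0.28 (edgeR adjusted p = 0.013). Of the mitochondrially encoded complex I mRNAs 5 of 7 were called higher in QKO, of the other assembly factors 5 of 12, and of complexes II to V 18 of 38, with a median log2 change of 0.51. Ndufc2 was not called between QKO and MIGIRKO (0.36 ± 0.24, edgeR adjusted p = 0.27).

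**Figure D4:**
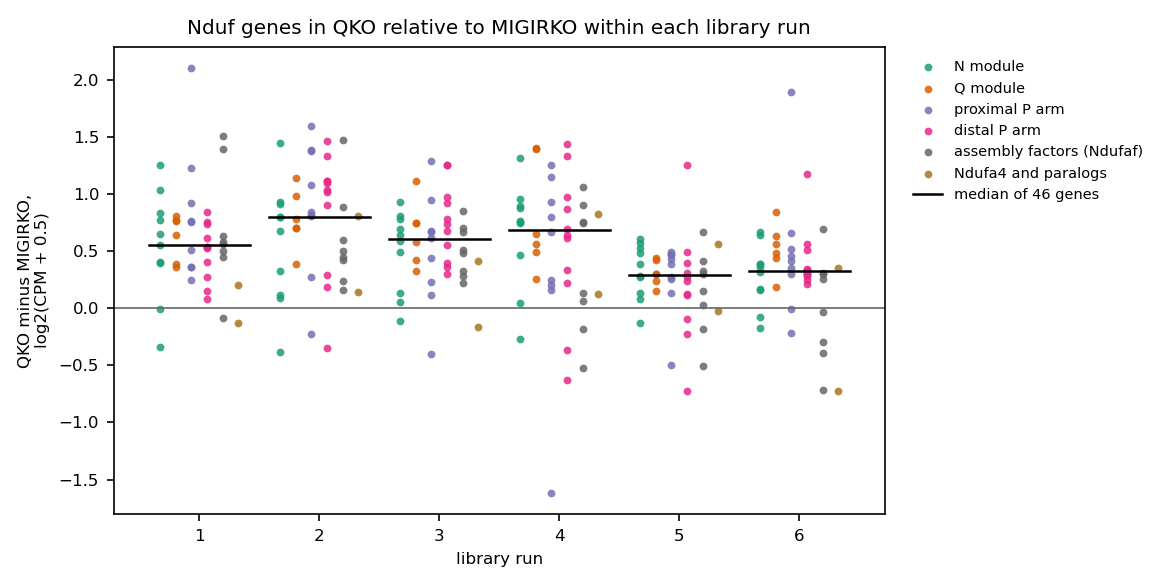
Log2 difference between QKO and MIGIRKO (vertical axis, QKO minus MIGIRKO, on log2(CPM + 0.5)) of each Nduf gene within each of the 6 library runs (horizontal axis), with 1 point per gene and run, coloured by place in the enzyme, and a black line at the median. Most points lie above 0, and the medians over the 46 members run from 0.29 in run 5 to 0.80 in run 2.

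Each of the 6 library runs held MIGIRKO and QKO, with 1 library of each except for 2 QKO libraries in run 3. The within-run medians over the members were 0.56, 0.80, 0.60, 0.68, 0.29 and 0.32 for runs 1 to 6, and the plot of these differences shows most members above 0 in every run. Of the 46 members, 28 were higher in QKO in each of the 6 runs, where 14.8% of all genes were. The blocked fit called 32 members higher, the same 26 and also Ndufa11, Ndufa4, Ndufb3, Ndufb4, Ndufb8 and Ndufs6, where it called 18.1% of all genes higher, 15.8% lower and 33.9% in all. Without the library labelled MIGIRKO 6, which sits in run 6, the count was 24, and without QKO 6 it was 30. The summed muscle fiber markers lay at 116400 to 229200 CPM in QKO, against 71100 to 116300 CPM in MIGIRKO, with 8 of 10 called higher and 1 lower. The summed adipocyte markers lay at 127.8 to 336 CPM in QKO, against 396.6 to 1370 CPM in MIGIRKO, with 7 of 7 called lower. The summed denervated muscle transcripts lay at 91.39 to 360.2 CPM in QKO, against 226.8 to 996.8 CPM in MIGIRKO, with 6 of 9 called lower. The summed macrophage and immune markers lay at 257.2 to 2932 CPM in QKO, against 576.5 to 1595 CPM in MIGIRKO, with 1 of 9 called lower. QKO 6 held the highest immune sum of the 34 libraries, 2932 CPM, and the lowest fiber sum of the QKO libraries, 116400 CPM. Their part in the higher Nduf levels was not tested, and colony and genotype cannot be told apart here.

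**Figure D5:**
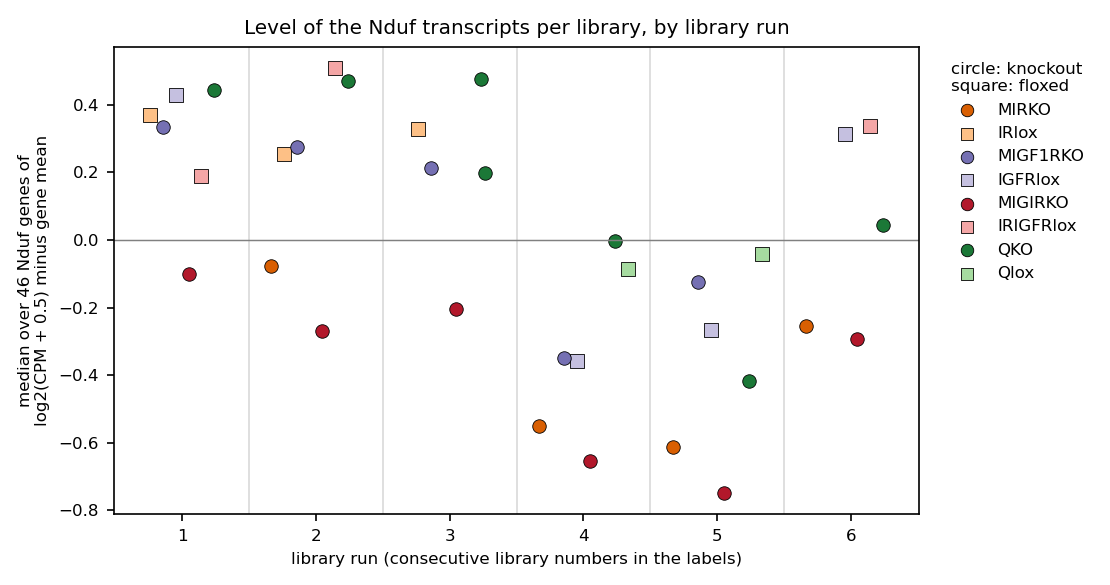
Median over the 46 Nduf genes of log2(CPM + 0.5) minus the gene's mean (vertical axis) for each of the 34 libraries, by library run (horizontal axis), with circles for knockout and squares for floxed groups. In the 5 groups with libraries in other runs too, those of runs 4 and 5 lie lowest, and within each run MIGIRKO lies below QKO.

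The Nduf transcripts differed between library runs by as much as between some genotypes, as the plot of medians by library run shows. What sets the runs apart is not known. In the 5 groups with libraries both in runs 4 and 5 and elsewhere, the members' median log2 difference, runs 4 and 5 minus the other runs, was -0.43 in MIRKO, -0.49 in MIGF1RKO, -0.48 in MIGIRKO, -0.66 in QKO and -0.68 in IGFRlox. The members lower in runs 4 and 5 numbered 37 in MIRKO, 41 in MIGF1RKO, 39 in MIGIRKO, 46 in QKO and 44 in IGFRlox. The median of all genes moved by no more than 0.012 in any of these groups. A set of 76 other protein-coding genes with under 1000 exonic bases and a mean of at least 16 CPM moved by -0.43 to -0.66 in these groups, so the shift was not particular to complex I. Among the members it was uneven. Ndufs6, with 898 exonic bases, averaged -1.78 over the 5 groups, and Ndufa3, with 1022 exonic bases, averaged -1.67. The shift did not strictly follow exonic length. Ndufa1, with 419 exonic bases, averaged -0.36, and Ndufb8, with 3146, averaged -1.015. Ndufb2, with 5628, averaged 0.50, the highest of the members. Ndufs1, with 8086 exonic bases, averaged 0.11, and Ndufs8, with 1291, averaged 0.06. Ndufs1 also had the smallest spread within groups of any member, with an SD of 0.15 on the log2 scale. These means hide groups that went either way. In MIRKO, Ndufs1 lay at 469 and 374 CPM in runs 4 and 5, against 365 and 273 CPM in the other runs, and in IGFRlox, Ndufs8 lay at 63.0 and 136 CPM in runs 4 and 5, against 119 and 102 CPM in the other runs. Between QKO and Qlox, run and genotype can be told apart only within runs 4 and 5.

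The promoters of the members were searched for short motifs of factors known to act on mitochondrial or FoxO target genes. RefSeq promoters of GRCm38.p6 were found for 40 of the 46 members, and the 250 bases upstream of the start were searched on both strands. The sequences below are the last 100 upstream bases, 5′ to 3′ on the gene's strand, of 4 members that were called lower in MIGIRKO. Ndufaf1 is shown as the member with a FoxO motif and Ndufa11 as one with an NRF1 motif. Ndufaf5 and Ndufc2 are shown because the results turn on them, and neither held any motif searched. Capitals mark motif matches.
Ndufaf1, chr2:119662835-119662934, minus strand: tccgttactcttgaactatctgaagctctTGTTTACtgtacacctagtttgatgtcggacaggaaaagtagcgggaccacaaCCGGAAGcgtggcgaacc
Ndufa11, chr17:56717662-56717761, plus strand: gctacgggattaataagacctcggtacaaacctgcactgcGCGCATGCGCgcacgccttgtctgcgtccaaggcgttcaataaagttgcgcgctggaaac
Ndufaf5, chr2:140170546-140170645, plus strand: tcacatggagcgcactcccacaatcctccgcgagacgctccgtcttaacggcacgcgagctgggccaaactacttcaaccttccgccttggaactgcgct
Ndufc2, chr7:97399903-97400002, plus strand: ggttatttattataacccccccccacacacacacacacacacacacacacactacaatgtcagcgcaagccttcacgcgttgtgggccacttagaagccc
In Ndufaf1 the capitals are a FoxO motif on the opposite strand, with its first base 71 bases upstream of the start, and an ETS motif 18 bases upstream. In Ndufa11 they are an NRF1 motif on each strand, 60 and 57 bases upstream, which overlap in a palindrome.

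The FoxO motif GTAAACA was present upstream of 1 of 40 members, 2.5%, against 3.54% of all 27025 genes with promoters in the table. A gene with several promoters counted once. The NRF1 motif GCGCATG, part of the palindromic site of a factor that drives many respiratory genes, was present in 5 members (Ndufa11, Ndufa6, Ndufa8, Ndufaf4 and Ndufb6), 12.5% against 3.68%. The ETS motif CCGGAAG was also present in 5 (Ndufaf1, Ndufaf8, Ndufb6, Ndufb7 and Ndufs3), 12.5% against 7.83%. The ERR motif AAGGTCA, bound by estrogen-related receptors, was present in 3 (Ndufb2, Ndufb4 and Ndufs5), 7.5% against 4.7%, and the YY1 motif AAGATGG in 0, 0.0% against 5.18%. In all, 12 of the 40 members held any of these motifs. The member promoters had a median GC content of 58.2%, against 52.4% for all promoters. A match says that these letters stand in the window, and nothing was tested about binding.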

How the data were processed

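Bulk RNA-seq of 34 mouse muscle libraries was analysed as deposited. The authors' deposited table holds raw read counts per Ensembl gene, aligned with STAR and counted with featureCounts on GRCm38.p4, per the submitters' processing notes, which give no versions. Stranded Wafergen libraries were multiplexed, per the labels' protocols. Totals of 1499025 to 7581198 counts per library limit the precision of weakly expressed members. Of 46071 IDs, 45143 matched GENCODE M21, which gave symbols and positions, and 0 columns were left unused.

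Counts were tested with edgeR 4.0.16 (R 4.3.3): filterByExpr left 13646 genes, TMM scaling, 1 mean per group over all 34 libraries, robust quasi-likelihood F test, Benjamini-Hochberg adjustment over all tested genes, called at an adjusted p under 0.05. SE is the log2 change divided by the root of F. CPM values are scaled by TMM. Replicates were numbered in accession order within groups and pair nothing. Alternatives were DESeq2 1.42.0 (test and size factors), limma-voom 3.58.1, library totals without scaling, other filters, a block for library runs, the 12 floxed libraries pooled as 1 control, compared groups only, and leaving out libraries. Chosen after seeing the data were the fits without library runs 4 and 5 and those that combine the block with another change. Scripts were tested on simulated data. Figures used matplotlib 3.10.9, with pandas 2.3.3 and numpy 2.4.6 under Python 3.11.15.

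The members, modules, marker lists and tests were chosen with earlier results of these data known. Per-library values are given for the core subunits, in each class the 2 members with the smallest p and the 1 with the largest p in MIGIRKO, members called in the other comparisons (at most 4 each), and Ndufa4l2. Ndufa1, Ndufa3, Ndufa5, Ndufaf1, Ndufb2, Ndufb8 and Ndufs6 were described after their values were seen. Of each list of other genes at most 3 called ones are named. Results of 1 item are not reported here, and counts include it. Motifs are descriptions.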

Additional observations from a re-analysis of the deposited data

Results flagged for a closer look

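In 4 of 110 groups of 4 to 10 libraries examined, 1 library lay far from the rest, where chance gives about 1 in 20. In the library labelled MIRKO 4, Ndufa7 was at 43.1 CPM, against 14.2 to 17.6 CPM in the other MIRKO libraries, and Ndufs5 was at 7.71 CPM, against 0.394 to 0.785 CPM. Over all genes this library was closest to MIGIRKO 3 (r = 0.982 across genes). MIRKO 1 and MIRKO 3 were also closest to a MIGIRKO library, the one labelled MIGIRKO 6 (r = 0.971 and 0.974). Ndufaf5 was at 46.5 CPM in MIGF1RKO 2, against 27.6 to 32.1 CPM in the other MIGF1RKO libraries. Ndufs3 was at 54.2 CPM in IGFRlox 2, against 110 to 121 CPM in the other IGFRlox libraries.

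For 5 named members the change in QKO was above that in MIGIRKO by edgeR's test of the difference. The log2 difference was 2.21 for Ndufc2 (adjusted p = 0.008), 1.11 for Ndufa8 (0.013), 0.757 for Ndufs1 (0.016), 1.37 for Ndufs4 (0.035) and 0.961 for Ndufv2 (0.046). With library runs as a block these were 1.48, 0.75, 0.86, 0.677 and 0.653 in the same order, with adjusted p = 0.028, 0.07, 0.017, 0.13 and 0.19.

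For 7 named members the change in MIGIRKO was below that in MIGF1RKO by the same test. The log2 difference was -0.896 for Ndufs1 (adjusted p = 0.0025), -1.15 for Ndufaf5 (0.012), -0.866 for Ndufs8 (0.014), -0.857 for Ndufa8 (0.024), -0.852 for Ndufa10 (0.025), -0.95 for Ndufaf6 (0.028) and -0.895 for Ndufv2 (0.031). With library runs as a block all 7 kept the direction and an adjusted p under 0.05, from 0.0033 for Ndufs1 to 0.049 for Ndufv2.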

How the results depend on the processing

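The count of members called lower in MIRKO was 2. It was 7 with DESeq2, where 2.72% of all genes were called, and 19 with all 12 floxed libraries as control, where 20.7% were called against 1.25%. It was 1 with library runs as a block (0.542% of all genes), with no filter (0.349%) or without library runs 4 and 5 (1.88%). It was 0 with the compared groups only, with library totals, without the libraries labelled MIRKO 4 and MIGIRKO 6, and with the block combined with either of the last changes. Leaving out 1 library gave 0 to 6. In MIGIRKO the count of 25 was 7 with library totals, with or without the block, where 52.0% and 51.3% of all genes were called. It was 15 to 27 when 1 library was left out. In QKO against Qlox the count of 0 was 1 with DESeq2, where 1.11% of all genes were called, and 0 in each fit that left out 1 library. For QKO minus MIGIRKO the count of 9 was 15 with DESeq2 (8.19% of all genes), 2 with the block (3.95%) and 1 with library totals (10.3%). It was 0 with the block and library totals (5.28%), 3 with the block and without the labelled pair (7.83%), and 0 to 19 when 1 library was left out. For MIGIRKO minus MIGF1RKO the count of 10 was 2 with library totals (15.9% of all genes) and 1 with these and the block (11.2%). It was 1 without library runs 4 and 5 (1.03%), and 4 to 13 when 1 library was left out. For QKO against MIGIRKO the count of 26 was 6 with library totals, where 48.7% of all genes were called. It was 12 with these and the block (11 higher, 1 lower), where 53.8% were called, and 21 to 30 when 1 library was left out. Among the floxed groups the count of 0 was 1 with the compared groups only, where 0.968% of all genes were called. Over 48 called results of named genes and 1136 alternatives, 953 kept direction and call, 182 lost the call and 1 turned: Ndufa9 in MIGIRKO was 0.0118 with the block and library totals. Outside these 48, 11 members lay above 0 in MIGIRKO with library totals. They were Ndufaf1 and the uncalled Ndufa1, Ndufa4l2, Ndufa7, Ndufaf2, Ndufaf4, Ndufaf7, Ndufaf8, Ndufb2, Ndufb7 and Ndufs5. The cause of these shifts was not tested. No paired analysis was possible because replicate numbers follow accession order and the labels give no pairs. Without library runs 4 and 5 there is no Qlox library, so its comparisons gave no value there. Depth limits Ndufs5, Ndufa4l2 and Ndufaf2, whose medians lay under 6 CPM in each group.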
